A study of Drosophila melanogaster with 36 samples.

Results

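The comparison set whole adult female flies collected 2 h after a heat treatment against untreated flies. It used 8 of the 36 arrays of the series. The 4 arrays at 2 h came from flies that had spent 1 h at 36 °C, and the 4 untreated arrays came from flies with no heat treatment. Each set of 4 held 2 lines of *Drosophila melanogaster*, labelled as selected for heat resistance and non-selected, with 2 biological replicates of each. The arrays were assigned to the groups by these labels and by no measured value. The labels do not give the number of populations behind each line, the flies per extract, their age or the hour of collection, so any difference in time of day or in handling between the groups cannot be told apart from heat. The remaining arrays, taken between 0.25 and 64 h after heat, entered the fit to estimate the spread, and those at 1 and 4 h served as neighbours in time.

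Heat unfolds proteins, and the heat shock factor Hsf then binds the promoters of chaperone genes and raises their transcription. Hsp70-class chaperones work with J-domain partners, nucleotide exchange factors of the BAG family and Hsp90, while small heat shock proteins hold unfolded clients until they can be refolded. Another branch of the stress response runs through the transcription factor cnc and its inhibitor Keap1, and acts on glutathione S-transferases and other detoxifying enzymes. Proteins that cannot be refolded are cleared by the proteasome and by autophagy, for which ref(2)P, the fly p62, serves as a cargo receptor.

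Values are deposited intensities, compared on the log2 scale, and per-array values are given for the selected line, replicates 1 and 2, and then for the nonselected line, replicates 1 and 2. The median intensity of all 36 arrays lay between 43.5 and 52, and 7486 to 7621 probe sets reached an intensity of 32 in the 8 arrays. The summed intensity of 24 male reproductive tract genes was 217 to 253 at 2 h and 192 to 265 in untreated flies, and none of these genes reached 32 on any of the 8 arrays, whereas the yolk protein gene Yp1 stood at 17700 to 28900 at 2 h and at 22500 to 33000 in untreated flies. The 3' to 5' log2 ratio of the control transcripts was 1.95 ± 0.59 at 2 h and 2.00 ± 0.46 in untreated flies (SD, n = 4 each, 2-sided exact permutation test p = 0.83, smallest possible p = 0.0286). It separated the replicate numbers instead, at 2.11 to 2.60 in replicate 1 arrays and 1.37 to 1.76 in replicate 2 arrays. The replicate number entered the fit as a block, and each number held both groups and both lines. The array of the selected line at 2 h, replicate 2, stood apart from the other 7 in its vitelline membrane transcripts, as given with the eggshell genes. The nonselected array of replicate 2 at 2 h was also low in the transcripts printed there.

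At 2 h the flies carried far more mRNA of inducible chaperones, more mRNA of several glutathione S-transferases, other detoxifying enzymes and ref(2)P, and less mRNA of genes such as Ance-4, CG4734 and regucalcin. Of 8199 probe sets tested, 180 passed (2.2%, limma with Benjamini-Hochberg adjustment over all probe sets, threshold 0.05), with 120 higher (1.46%) and 60 lower (0.732%). In whole-fly RNA, fewer cells of a type and less mRNA per cell cannot be told apart. All 180 differed in the same direction in both lines and within both replicate numbers. They were selected on the mean of these same arrays, which favours such agreement, so it is no separate support. In 149 of the 180 the 4 arrays at 2 h did not overlap the 4 untreated arrays. Over all probe sets tested, 316 (3.85%) had no overlap with the 2 h arrays higher and 177 (2.16%) with them lower. The median log2 change over all probe sets was 0.026, and 5% of them lay under -0.42 and 5% above 0.31. Of the 180, 62 exceeded a 2-fold difference, 42 higher and 20 lower. Without the replicate block 96 passed (1.17%), 64 higher (0.781%) and 32 lower (0.39%), all of them among the 180. The lower calls rest most on single arrays, since 127 higher and 30 lower calls were made without the selected array of replicate 1 at 2 h, and 87 higher and 85 lower without the selected array of replicate 2 at 2 h.

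**Figure D1:**
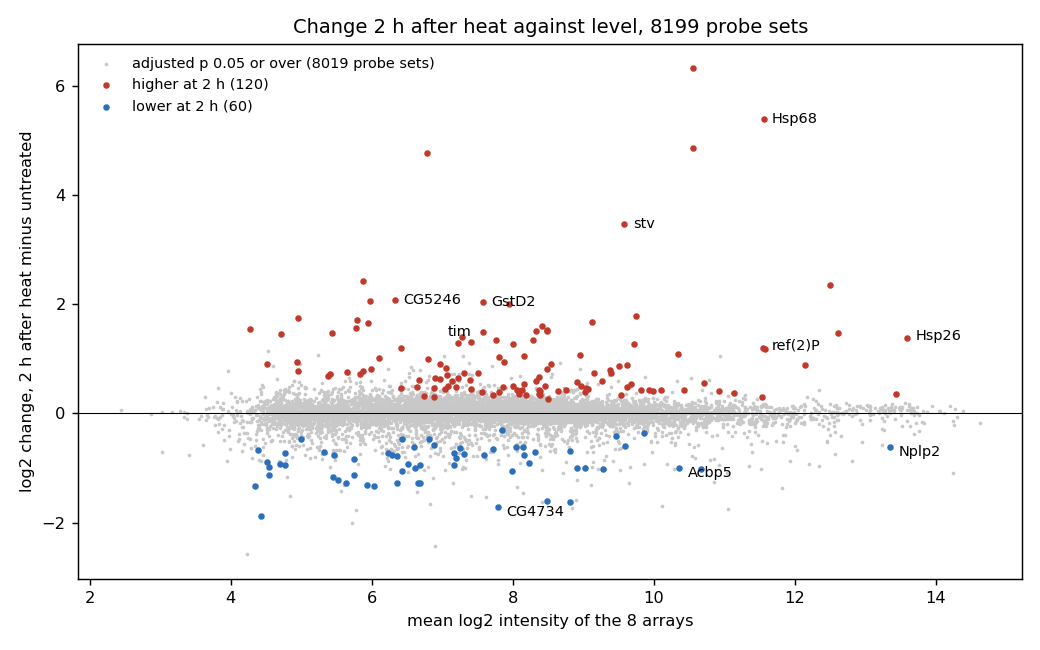
Log2 change (2 h after heat minus untreated, y axis) against the mean log2 intensity of the 8 arrays (x axis) for 8199 probe sets, with 120 probe sets that passed as higher in red, 60 that passed as lower in blue and the rest in grey. Hsp68 and stv lie far above the other named genes, and no probe set that passed as lower changed by as much as Hsp68 or stv.

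Inducible chaperones led the increases. Hsp68, an inducible member of the Hsp70 family, had intensities of 18100, 20000, 19400 and 20800 at 2 h, against 496, 682, 491 and 283 in untreated flies. The 4 heated values lay close together and all were far above the untreated ones, a 42.0-fold difference (log2 change 5.39, SE 0.26, limma adjusted p = 2.21e-11). Of the 20 listed heat shock protein genes, 7 have a probe set with a single gene symbol and 6 were bright enough to test, and 3 of those 6 rose, against 1.46% of all probe sets. The small heat shock protein gene Hsp27 stood at 9120, 11900, 8940 and 12400 at 2 h, against 3160, 4050, 3370 and 4680 in untreated flies (log2 change 1.48, SE 0.16, adjusted p = 7.38e-06). Hsp26, also a small heat shock protein gene, stood at 16400, 24300, 17700 and 22600 at 2 h, against 6440, 9660, 6700 and 8470 in untreated flies (log2 change 1.37, SE 0.12, adjusted p = 6.17e-07). For both genes every heated value was above every untreated one, and replicate 2 was higher than replicate 1 in each line and group. The other 3 tested members did not pass. The small heat shock protein genes l(2)efl, CG7409 and CG4461 had log2 changes of 0.48 (adjusted p = 0.424), 0.12 (adjusted p = 0.973) and 0.020 (adjusted p = 0.999), with overlapping groups. The median log2 change of the 6 was 0.93, beside 0.026 over all probe sets.

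The annotation joins other inducible chaperones in probe sets of several genes, so these values belong to no single gene. The probe set annotated to both Hsp22, a mitochondrial small heat shock protein, and CG4456 had 7340, 10600, 7130 and 7780 at 2 h, against 255, 407, 324 and 184 in untreated flies (log2 change 4.86, SE 0.37, adjusted p = 3.13e-08). A dimmer probe set with the same annotation had 135, 137, 152 and 120 at 2 h and 33.5, 23.8, 36 and 14.3 in untreated flies. It too was higher in every heated array, by at least 4.07-fold once values under 32 are set to 32. The gene copies Hsp70Ba, Hsp70Bb, Hsp70Bbb and Hsp70Bc, which are nearly identical, share a probe set with 12900, 18000, 10900 and 11800 at 2 h, against 3340, 4060, 2460 and 1300 in untreated flies (log2 change 2.36, SE 0.30, adjusted p = 3.74e-05). Untreated flies thus already gave a signal far above 32 at this probe set. A dimmer probe set annotated to these copies and CG5608 had 302, 408, 327 and 355 at 2 h, against 157, 147, 150 and 98.8 in untreated flies. Its log2 change was smaller, at 1.35 (SE 0.21, adjusted p = 0.000496). The highest log2 change of the whole comparison, 6.32 (SE 0.26, adjusted p = 1.15e-12), belonged to a probe set without a gene symbol, at 12000, 15100, 13200 and 13900 at 2 h and at 153, 182, 265 and 109 in untreated flies. Another probe set without a symbol had 480, 848, 439 and 605 at 2 h and 19.9, 23.8, 17.9 and 23.3 in untreated flies. It was at least 17.9-fold higher (adjusted p = 1.58e-09). These probe sets were picked out after their values were seen.

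In the list of co-chaperones and the heat shock factor, 4 of 19 tested genes rose, against 1.46% of all probe sets, and none fell. The BAG-domain protein stv (starvin), which releases nucleotide from Hsp70, had 2870, 3270, 2630 and 1730 at 2 h, against 317, 256, 300 and 117 in untreated flies. It was higher in every heated array, by 11.1-fold (log2 change 3.47, SE 0.25, adjusted p = 1.84e-08). The myosin chaperone unc-45 had 509, 522, 716 and 454 at 2 h, against 217, 196, 217 and 145 in untreated flies (log2 change 1.50, SE 0.18, adjusted p = 2.33e-05). The J-domain protein DnaJ-1 had 4360, 6760, 3400 and 4530 at 2 h, against 1980, 2330, 1840 and 2060 in untreated flies (log2 change 1.17, SE 0.15, adjusted p = 3.74e-05). Both had no overlap between the groups. Cdc37, which loads kinases onto Hsp90, had 489, 703, 551 and 663 at 2 h and 385, 461, 400 and 447 in untreated flies, a smaller difference of 0.50 on the log2 scale (SE 0.10, adjusted p = 0.00661) that did not pass without the replicate block. The list's median log2 change was 0.22. The mRNA of Hsf itself had 706, 499, 592 and 491 at 2 h and 475, 453, 455 and 373 in untreated flies, higher in each heated array but with a log2 change of 0.37 that did not pass (adjusted p = 0.47).

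Outside the list, 2 further chaperone-related genes were picked out after their values were seen. CG7130, which encodes a predicted J-domain protein, had 224, 257, 343 and 256 at 2 h, against 106, 91.4, 111 and 124 in untreated flies (log2 change 1.31, SE 0.16, adjusted p = 3.52e-05). Sgt1, a partner of Hsp90, had 410, 588, 397 and 532 at 2 h, against 252, 264, 305 and 266 in untreated flies (log2 change 0.81, SE 0.13, adjusted p = 0.00084). In both genes all heated values were above all untreated ones. CG11035, the gene beside unc-45 in the RefSeq annotation, also passed as higher (log2 change 0.82, SE 0.11, adjusted p = 0.000188), and the part of its nearness in that value was not tested.

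**Figure D2:**
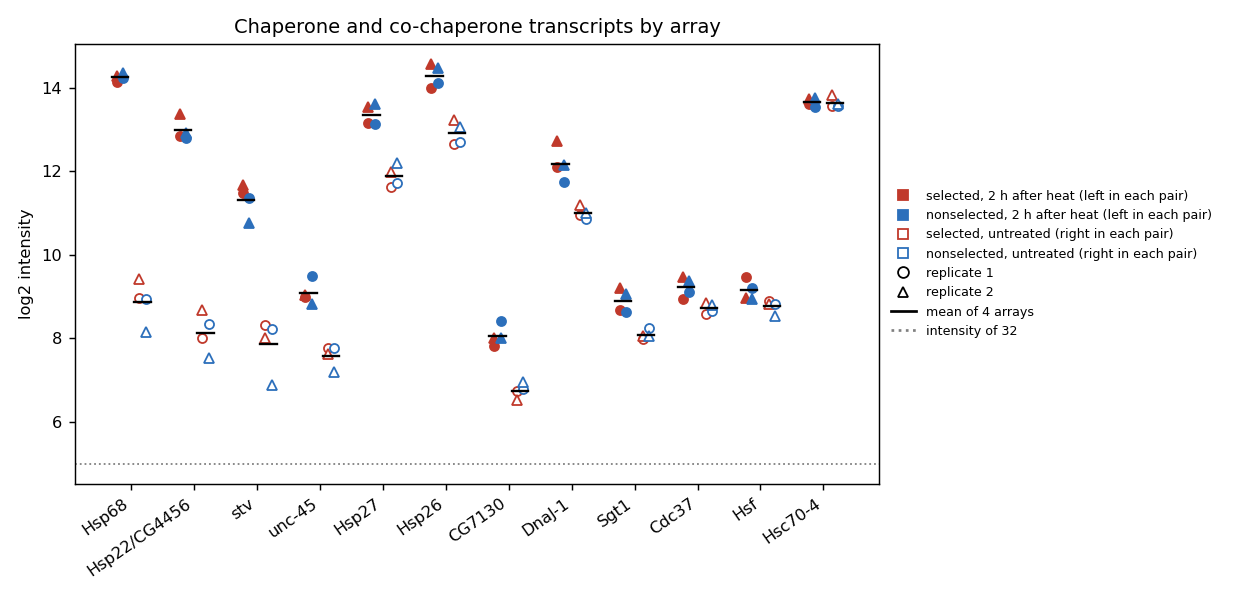
Log2 intensity (y axis) of 12 chaperone and co-chaperone probe sets in the 8 arrays, with 2 h after heat as filled symbols on the left of each pair and untreated as open symbols on the right; circles are replicate 1, triangles replicate 2, red the selected and blue the nonselected line, and bars the mean of 4 arrays. The pairs from Hsp68 to Cdc37 do not overlap, the Hsf pair lies close together, and the constitutive Hsc70-4 lies at the same height in both groups.

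Among probe sets with a single gene symbol, chaperones that cells make constitutively gave no calls. None of 7 tested Hsc70 and Hsp60 family genes and none of the 8 subunits of CCT, the cytosolic ring chaperonin, passed. Hsc70-4, the main constitutive Hsp70 relative, had 12500, 13500, 11800 and 13800 at 2 h and 12000, 14600, 12000 and 12400 in untreated flies (log2 change 0.02, SE 0.077, adjusted p = 0.98). The median log2 changes of the Hsc70 and Hsp60 list and of the CCT list were 0.12 for each. A probe set annotated to both Hsc70-4 and Acbp3 is outside these lists, and its values belong to no single gene. Its log2 change was -1.61, at -1.163 within replicate 1 and -2.051 within replicate 2. It was among the probe sets that passed when 2 h was set against untreated flies, 1 h or 4 h. In the endoplasmic reticulum 1 of 23 folding and stress genes rose, beside 1.46% of all probe sets. It was Edem2, which sends misfolded glycoproteins to degradation, with 182, 139, 172 and 136 at 2 h and 101, 88.5, 120 and 94.8 in untreated flies (log2 change 0.64, SE 0.11, adjusted p = 0.00105). The list's median was 0.054. Of 13 stress kinase and immediate early genes 1 rose, beside the same 1.46%. It was Jra, the fly Jun, at 0.43 on the log2 scale (SE 0.091, adjusted p = 0.00994), with overlapping groups. That call was lost without the replicate block, without the nonselected array of replicate 1 at 2 h and without the selected untreated array of replicate 1.

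Glutathione S-transferases, which couple glutathione to reactive compounds, rose in a few members and not as a family. In the delta class 2 of 6 tested genes rose, in the epsilon class 2 of 12 rose and 1 fell, and among the other classes 1 of 9 rose, against 1.46% of all probe sets that rose and 0.732% that fell. The median log2 changes of the 3 lists were 0.35, -0.12 and 0.029, and that of the epsilon class was -0.283 within replicate 1 and 0.21 within replicate 2. GstE1 had 1220, 1390, 2120 and 1800 at 2 h, against 293, 696, 403 and 546 in untreated flies (log2 change 1.79, SE 0.28, adjusted p = 0.000552). GstD2 had 226, 485, 683 and 307 at 2 h, against 69.9, 110, 139 and 73.5 in untreated flies (log2 change 2.05, SE 0.41, adjusted p = 0.00602). Both were higher in every heated array, but the call of GstD2 was lost without the nonselected array of replicate 1 at 2 h, the selected untreated array of replicate 1 or the nonselected untreated array of replicate 2. GstO3, of the omega class, had 762, 1220, 1050 and 1020 at 2 h, against 275, 386, 457 and 201 in untreated flies (log2 change 1.67, SE 0.33, adjusted p = 0.00602). GstE7 had 351, 312, 339 and 311 at 2 h, against 199, 123, 210 and 163 in untreated flies (log2 change 0.95, SE 0.15, adjusted p = 0.00084). These genes too had no overlap between the groups, although GstO3 lost its call without the selected untreated array of replicate 1 or the nonselected untreated array of replicate 2, and GstE7 without the replicate block.

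The remaining transferases differed in both directions. GstD10 was dim in untreated flies, at 26.9, 47.5, 69.6 and 39.3 at 2 h and 15.5, 13.9, 15.7 and 18.5 in untreated flies, which makes a difference of at least 1.35-fold (fitted log2 change 1.45, adjusted p = 0.00592), and the call was lost without the nonselected array of replicate 1 at 2 h. The GstD10 call was also lost with values under 32 set to 32. GstE12 fell, with 616, 716, 631 and 553 at 2 h and 1190, 922, 1110 and 662 in untreated flies (log2 change -0.60, SE 0.15, adjusted p = 0.031), and lost its call without the replicate block and in 5 of the 8 fits that left out an array. GstD1, the brightest of the delta probe sets, stood at 9320, 10400, 10500 and 9850 at 2 h and at 8930, 9620, 8990 and 10100 in untreated flies (log2 change 0.09, adjusted p = 0.816). The family shares sequence between members, and how far a probe set also reads related genes was not tested.

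Genes of the Keap1 and cnc branch were counted with ref(2)P, and 3 of 11 rose and none fell, against 1.46% and 0.732% of all probe sets, with a median log2 change of 0.29. The ref(2)P transcript had 4340, 4860, 4620 and 4360 at 2 h, against 2060, 2100, 1940 and 1840 in untreated flies. Replicates and lines lay within a narrow range on each side, and the difference was 2.29-fold (log2 change 1.19, SE 0.082, adjusted p = 8.35e-09). Gclm, the modifier subunit of the enzyme that starts glutathione synthesis, had 1780, 2290, 2150 and 2000 at 2 h, against 1390, 1370, 1390 and 1380 in untreated flies (log2 change 0.56, SE 0.087, adjusted p = 0.000552). Trxr1, thioredoxin reductase, stood at 2850, 3580, 3130 and 3710 at 2 h and at 2510, 2920, 2470 and 2840 in untreated flies (log2 change 0.30, SE 0.063, adjusted p = 0.00922), with overlapping groups. Its call was lost without the replicate block and without the selected array of replicate 2 at 2 h. Keap1, at 0.44 on the log2 scale (adjusted p = 0.2), and cnc, at -0.17 (adjusted p = 0.694), did not pass. None of 7 antioxidant enzyme genes passed (median log2 change -0.0014).

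Phase I and phase II enzymes of other families gave single risers. Of 54 tested cytochrome P450 genes 2 rose (3.70%, median log2 change -0.073, against 1.46% of all probe sets), and of 15 UDP-glycosyltransferase genes 2 rose (median 0.105). The P450 median was -0.204 within replicate 1 and 0.141 within replicate 2. Cyp6a23 had 495, 974, 546 and 529 at 2 h, against 282, 180, 252 and 156 in untreated flies (log2 change 1.53, SE 0.29, adjusted p = 0.00397). Cyp28a5 had 140, 193, 161 and 202 at 2 h, against 86.7, 103, 79.8 and 97.2 in untreated flies (log2 change 0.91, SE 0.16, adjusted p = 0.0017). Neither gene had overlapping groups. Ugt35C1 had 310, 645, 340 and 369 at 2 h, against 192, 112, 251 and 137 in untreated flies (log2 change 1.27, SE 0.25, adjusted p = 0.0056). Ugt37A2, at 64.4, 249, 63 and 96.6 at 2 h and 33.8, 33.6, 38.6 and 19.7 in untreated flies, was at least 2.89-fold higher (adjusted p = 0.0268). That call was lost in 6 of the 8 fits that left out an array. Both families have members encoded side by side in the genome with related sequence, which was not separated here.

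**Figure D3:**
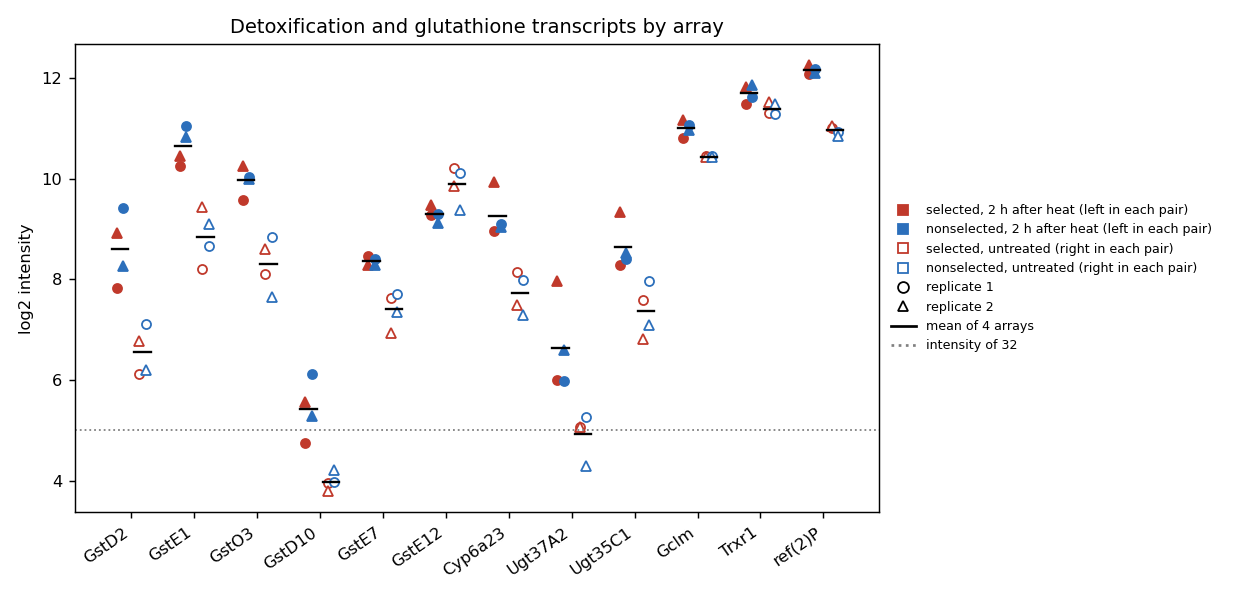
Log2 intensity (y axis) of 12 detoxification and glutathione genes in the 8 arrays, with 2 h after heat as filled symbols on the left of each pair and untreated as open symbols on the right; symbols and colours are as for the chaperones, and the dotted line marks an intensity of 32. GstE12 is the only one of the 12 drawn that was lower at 2 h, and the 4 symbols of each ref(2)P group lie close together.

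Lists for the clearance of damaged protein gave single calls, 3.85% of the proteasome and 4.35% of the ubiquitin and autophagy genes. Of all probe sets 1.46% rose, and a single call in a list of this size does not set it apart. Of 26 tested proteasome subunit genes 1 rose, Rpn6, with 2280, 2840, 2410 and 2760 at 2 h and 1830, 2130, 2070 and 1900 in untreated flies (log2 change 0.37, SE 0.087, adjusted p = 0.0215), and this call was lost without the replicate block and in 6 of the 8 fits that left out an array. All 26 had a positive log2 change, between 0.030 and 0.37 with a median of 0.12, beside 0.026 over all probe sets. Of 23 ubiquitin and autophagy genes 1 rose, Atg18b, which binds phosphoinositides on forming autophagosomes, with 181, 173, 187 and 147 at 2 h and 98.8, 105, 107 and 110 in untreated flies (log2 change 0.71, SE 0.11, adjusted p = 0.000863). The autophagy gene bchs (blue cheese), picked out after its value was seen, had 75.5, 69.1, 73.3 and 46.9 at 2 h and 40.2, 38.1, 39.2 and 35.7 in untreated flies (log2 change 0.77, SE 0.11, adjusted p = 0.000395). In Atg18b and bchs the heated arrays were all above the untreated ones.

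Apart from the list members Lip4 and Hex-C, the genes of carbohydrate, lipid and amino acid metabolism given here were chosen after their values were seen. Lip4, a lipase gene of the insulin and FOXO list, was the only 1 of its 14 tested members to rise (1.46% of all probe sets rose and 0.732% fell), with 420, 301, 517 and 440 at 2 h and 270, 158, 215 and 166 in untreated flies (log2 change 1.06, SE 0.23, adjusted p = 0.0103). Its call was lost without the replicate block and without the selected untreated array of replicate 2. The list's median log2 change was 0.17. Pdk, the kinase that inhibits pyruvate dehydrogenase, had 2120, 2420, 2220 and 2270 at 2 h, against 1450, 1920, 1600 and 1820 in untreated flies (log2 change 0.42, SE 0.079, adjusted p = 0.00421, lost without the block). Pepck1, which encodes the first committed enzyme of gluconeogenesis, had 7560, 5880, 5130 and 6350 at 2 h and 4010, 3750, 4760 and 1690 in untreated flies (log2 change 0.89, SE 0.22, adjusted p = 0.0319, lost without the block and in 6 of the 8 fits that left out an array). Hex-C, a hexokinase gene and the single member of 12 glycolysis genes to fall, had 111, 203, 192 and 181 at 2 h and 310, 271, 284 and 203 in untreated flies (log2 change -0.66, SE 0.16, adjusted p = 0.0345, lost without the block and in 6 of those 8 fits).

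The genes aay and Srr of serine metabolism rose, both picked out after their values were seen. The phosphoserine phosphatase gene aay, whose product makes serine, had 960, 1120, 974 and 891 at 2 h, against 548, 529, 572 and 511 in untreated flies (log2 change 0.86, SE 0.099, adjusted p = 1.37e-05). The serine racemase gene Srr had 715, 968, 708 and 555 at 2 h, against 432, 287, 410 and 271 in untreated flies (log2 change 1.08, SE 0.18, adjusted p = 0.000978). Neither gene had overlapping groups. The glycerolipid genes mdy, a diacylglycerol acyltransferase, and Lpin, the phosphatidate phosphatase lipin, differed by 0.46 (adjusted p = 0.0032) and 0.74 (adjusted p = 0.0424) on the log2 scale, the second lost without the replicate block and in 6 of the 8 fits that left out an array.

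Immune genes gave a few calls. The signalling genes that rose, picked out after their values were seen, were Rel, the NF-kappaB factor of the Imd pathway, Myd88, an adaptor of Toll receptors, and imd. Rel had 588, 563, 713 and 508 at 2 h and 471, 396, 414 and 308 in untreated flies (log2 change 0.58, SE 0.12, adjusted p = 0.00565), and Myd88 differed by 0.39 (adjusted p = 0.0345). Both calls were lost without the replicate block, and that of Myd88 in all 8 fits that left out an array. The imd probe set was dim, at 38.8, 31.1, 57.7 and 45.8 at 2 h and 20.3, 21, 23.9 and 23.5 in untreated flies, which makes at least 1.32-fold (adjusted p = 1.8e-05). None of 14 tested antimicrobial peptide genes passed (median log2 change -0.31, at -0.532 within replicate 1 and -0.029 within replicate 2). Of 9 genes for peptidoglycan recognition proteins and their regulator pirk, 1 fell, beside 0.732% of all probe sets. It was PGRP-SC2, whose product cleaves peptidoglycan, with 555, 223, 504 and 297 at 2 h and 887, 463, 1080 and 661 in untreated flies (log2 change -0.997, SE 0.22, adjusted p = 0.0139, lost without the block and in 5 of those 8 fits). The peptide genes Mtk and DptB had the lowest log2 changes of the antimicrobial list, -2.44 (adjusted p = 0.509) and -1.76 (adjusted p = 0.667), with values that overlapped between groups and varied widely among replicates.

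In the circadian clock list 2 of 9 tested genes rose, against 1.46% of all probe sets. They were tim and vri, both of which are transcribed under Clk and cyc in a daily cycle. The tim transcript had 328, 437, 304 and 242 at 2 h, against 166, 97.5, 140 and 73.1 in untreated flies (log2 change 1.50, SE 0.18, adjusted p = 2.36e-05). The vri transcript had 86.5, 92.4, 63.4 and 53.5 at 2 h, against 31.1, 33.9, 26.5 and 16.1 in untreated flies, at least 2.22-fold higher (fitted log2 change 1.48, SE 0.21, adjusted p = 0.000205). Heated and untreated arrays did not overlap for either gene. Another, dimmer tim probe set gave a log2 change of 0.19 (adjusted p = 0.925). Pdp1 and cry, further output and photoreceptor genes of the clock, stood at 0.51 (adjusted p = 0.397) and -0.49 (adjusted p = 0.0976), and the list's median was 0.099. The hour of collection is not in the labels, so heat and time of day cannot be told apart here.

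Among the 15 highest changes with a single symbol and no overlap between groups were 7 genes known only by a number. CG2065, a predicted short-chain dehydrogenase, had 109, 77.9, 154 and 209 at 2 h and 29, 31.3, 29.4 and 33.1 in untreated flies, at least 3.98-fold higher (adjusted p = 0.000109). CG12224, a predicted aldo-keto reductase, had 589, 316, 1050 and 308 at 2 h and 123, 118, 105 and 153 in untreated flies (log2 change 2.00, SE 0.23, adjusted p = 1.37e-05). CG5246, a predicted serine protease, had 932, 117, 117 and 58.7 at 2 h and 42.8, 44.1, 35.6 and 34.6 in untreated flies (log2 change 2.08, SE 0.38, adjusted p = 0.00327). The first heated array of CG5246 is far above the other 3, and without it the log2 change was 1.44. CG16898, at 663, 750, 531 and 467 at 2 h and 311, 154, 233 and 133 in untreated flies, rose by 1.59 on the log2 scale (SE 0.26, adjusted p = 0.000922, lost without the block). CG34376, at 67.7, 121, 95.3 and 99.6 at 2 h and 36.5, 36.3, 30.2 and 25 in untreated flies, was at least 2.75-fold higher, but its other probe set gave a log2 change of 0.22 (adjusted p = 0.578). CG4269 and CG6785 were dim. CG4269 stood at 57.7, 54.2, 63.5 and 51.8 at 2 h and at 15.2, 18.3, 14.1 and 20.2 in untreated flies, at least 1.77-fold higher (adjusted p = 0.00845, lost without the untreated array of replicate 1 of either line). CG6785 stood at 29.3, 39.7, 35.7 and 28.6 at 2 h and at 10.9, 12.1, 10.7 and 11.6 in untreated flies (adjusted p = 1.27e-05), so its level at 2 h is itself near 32. With values under 32 set to 32, neither CG4269 nor CG6785 passed.

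Ance-4 and Ance-5 were among the genes that fell. Ance-4, related to angiotensin-converting enzyme, had 49, 36.8, 78.3 and 54.6 at 2 h, against 100, 85.8, 144 and 211 in untreated flies (log2 change -1.27, SE 0.16, adjusted p = 3.74e-05). Its relative Ance-5 had 20.7, 42.9, 33.9 and 26.8 at 2 h, against 70.3, 58.1, 68.9 and 85.5 in untreated flies, at least 2.01-fold lower (adjusted p = 0.00661, lost without the selected array of replicate 1 at 2 h). The neprilysin family gave Nep6, picked out after its value was seen, with a log2 change of -0.93 (SE 0.18, adjusted p = 0.00445), and Nepl9, whose 4 heated arrays lay between 8.15 and 19.1 and whose untreated arrays lay between 26.1 and 37 (adjusted p = 0.0149). Each of these 4 genes had all heated values under all untreated ones, although Nepl9 was near or under 32 throughout and lost its call in 6 of 8 fits that left out an array. PPO2, a prophenoloxidase of crystal cells and the RefSeq neighbour of Ance-4, lay between 12.3 and 19.8 at 2 h and between 24.1 and 45.7 in untreated flies (adjusted p = 0.0137), and lost its call in 4 of those 8 fits. With values under 32 set to 32, neither Nepl9 nor PPO2 passed.

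The deepest drop among single-symbol genes that passed was that of CG4734, with 127, 143, 142 and 85.4 at 2 h, against 280, 435, 527 and 394 in untreated flies (log2 change -1.71, SE 0.29, adjusted p = 0.00142). CG13309 had 33.1, 44.5, 59.1 and 34 at 2 h, against 110, 102, 99 and 106 in untreated flies (log2 change -1.33, SE 0.26, adjusted p = 0.00502). In both genes the groups were far apart. Glt (glutactin), a protein of basement membranes, had 254, 354, 465 and 320 at 2 h, against 729, 545, 849 and 640 in untreated flies (log2 change -1.003, SE 0.21, adjusted p = 0.00926, lost without the block and without the selected array of replicate 1 at 2 h). The neighbouring genes CG7916 and CG8997 both fell, CG8997 with 1030, 1340, 871 and 1420 at 2 h and 2160, 2140, 2420 and 2520 in untreated flies (log2 change -1.01, SE 0.21, adjusted p = 0.00811), and CG7916 by 1.01 as well (adjusted p = 0.0244, lost without the block). CG8997 lost its call in 4 of the 8 fits that left out an array, and CG7916 in 6. CG4250, CG16965 and CG10514 also fell, at -1.28, -1.12 and -1.06 on the log2 scale (adjusted p = 0.0103, 0.00602 and 0.0155). CG10514 lost its call without the block and in 6 of those 8 fits, CG4250 in 4 and CG16965 without the nonselected untreated array of replicate 1. NtR, which encodes a predicted ligand-gated ion channel, lay between 13.6 and 18.9 at 2 h and between 22.3 and 53 in untreated flies (adjusted p = 0.00276). Its call was lost with values under 32 set to 32. The transcript kumpel fell at its brightest probe set (log2 change -1.30, adjusted p = 0.0191, lost in 6 of those 8 fits), while its 3 other probe sets gave -0.68, -0.10 and -0.10, none of which passed.

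A binding protein gene, a secreted factor gene and a calcium-binding protein gene fell as well. Acbp5, an acyl-CoA-binding protein gene, had 1110, 749, 1200 and 744 at 2 h, against 2020, 1510, 3080 and 1260 in untreated flies (log2 change -0.996, SE 0.22, adjusted p = 0.0164). It was the only 1 of 4 tested members of its list to pass, beside 0.732% of all probe sets that fell. Its call was lost without the block and in 5 of the 8 fits that left out an array, and the list's median was -0.44. Nplp2, a neuropeptide-like precursor, and regucalcin, a calcium-binding protein, were picked out after their values were seen. Nplp2 had 8960, 8270, 9480 and 7420 at 2 h, against 13500, 11800, 13800 and 12800 in untreated flies (log2 change -0.61, SE 0.093, adjusted p = 0.000503). The regucalcin transcript had 176, 243, 234 and 227 at 2 h, against 385, 460, 393 and 407 in untreated flies (log2 change -0.91, SE 0.098, adjusted p = 7.7e-06). No heated value of Acbp5, Nplp2 or regucalcin reached the lowest untreated value.

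Digestive enzyme genes had lower values at 2 h without passing the test. All 14 tested Jonah protease genes had negative log2 changes, between -1.45 and -0.35 with a median of -0.85, and none passed. In 6 of them the 4 heated arrays lay under the 4 untreated arrays (2.16% of all probe sets did), for example Jon74E with 3520, 3620, 2790 and 3340 at 2 h and 5130, 5240, 6060 and 4740 in untreated flies (adjusted p = 0.112). Within replicate 1 their median was -0.716 and within replicate 2 it was -0.887, with all 14 negative in each. Of 15 trypsin-family genes 14 were negative (median -0.52) with none passing, Ser12 stood at 0.39, and 5 did not overlap. That median was -0.697 within replicate 1 and -0.188 within replicate 2. All 7 lysozyme genes were negative (median -0.86), and LysB, LysC and LysD did not overlap, LysC with 1750, 780, 1310 and 1140 at 2 h and 3040, 2680, 4070 and 2060 in untreated flies (adjusted p = 0.108). The lysozyme genes are close copies, so their probe sets are not separate measurements. Amylase and maltase genes had a median of -0.49, with 10 of 12 negative and none passing, but the lower values came from replicate 1 (median -0.857, 12 of 12 negative) and not from replicate 2 (median -0.0335, 7 of 12 negative). The SE of the log2 change was 0.35 for Jon44E and 0.38 for LysC, against a median SE of 0.131 over all probe sets.

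Eggshell genes showed the array that stood apart, and the other replicate 2 array at 2 h was also low in Vm32E and Vm34Ca. In the vitelline membrane list 9 of 10 genes were lower at 2 h (median log2 change -1.15), but none passed. Vm32E had 1410, 108, 2430 and 398 at 2 h and 1420, 1570, 3500 and 2060 in untreated flies (log2 change -1.69, SE 1.13, adjusted p = 0.692). Vm34Ca had 28000, 2660, 27300 and 15900 at 2 h and 26000, 27000, 33600 and 27900 in untreated flies (log2 change -1.09, SE 0.75, adjusted p = 0.714). In both genes the selected array of replicate 2 at 2 h was by far the lowest. The nonselected array of replicate 2 at 2 h was the next lowest, at 398 for Vm32E and 15900 for Vm34Ca. The selected array of replicate 1 at 2 h was close to the untreated ones. Within replicate 1 the log2 change of Vm32E was -0.27 and within replicate 2 it was -3.12. None of 8 chorion genes, 4 yolk protein genes, 27 germline and maternal genes or 24 cell cycle genes passed, with medians of -0.20, -0.25, -0.015 and 0.063. The vitelline membrane median was -0.182 within replicate 1 and -2.06 within replicate 2, and the chorion median was 0.182 and -0.832.

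Other housekeeping and tissue lists held no call. None of 50 tested oxidative phosphorylation genes passed, although 48 had negative log2 changes with a median of -0.17 and a lowest value of -0.56. Within replicate 1 the median was -0.366 with 48 of 50 negative, and within replicate 2 it was 0.047 with 18 of 50 negative. No member passed among 32 cytosolic ribosomal protein genes (median 0.068), 64 mitochondrial ribosomal protein genes (median -0.0062) or 19 ribosome biogenesis genes (median 0.029). The same held for 8 thin filament and 10 thick filament muscle genes (medians -0.086 and -0.052), 12 phototransduction genes (median 0.083), 14 odorant-binding protein genes (median -0.33), 12 fat body genes (median -0.15), 10 cuticle protein genes (median -0.047), 9 metallothionein and copper genes (median -0.042) and 8 iron genes (median 0.0023). The replicate numbers opposed each other in thin filament genes (median -0.601 within replicate 1 and 0.247 within replicate 2), in thick filament genes (-0.468 and 0.40) and in phototransduction genes (-0.25 and 0.504), and the odorant-binding median was -0.616 within replicate 1 and -0.0055 within replicate 2. Cuticle protein medians also differed in sign (0.216 and -0.216). So did those of mitochondrial ribosomal protein genes (-0.095 and 0.0785, with 50 and 17 of 64 genes negative). The cold-inducible gene Fst stood at 0.0043, and no Turandot or male tract gene was bright enough to test.

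**Figure D4:**
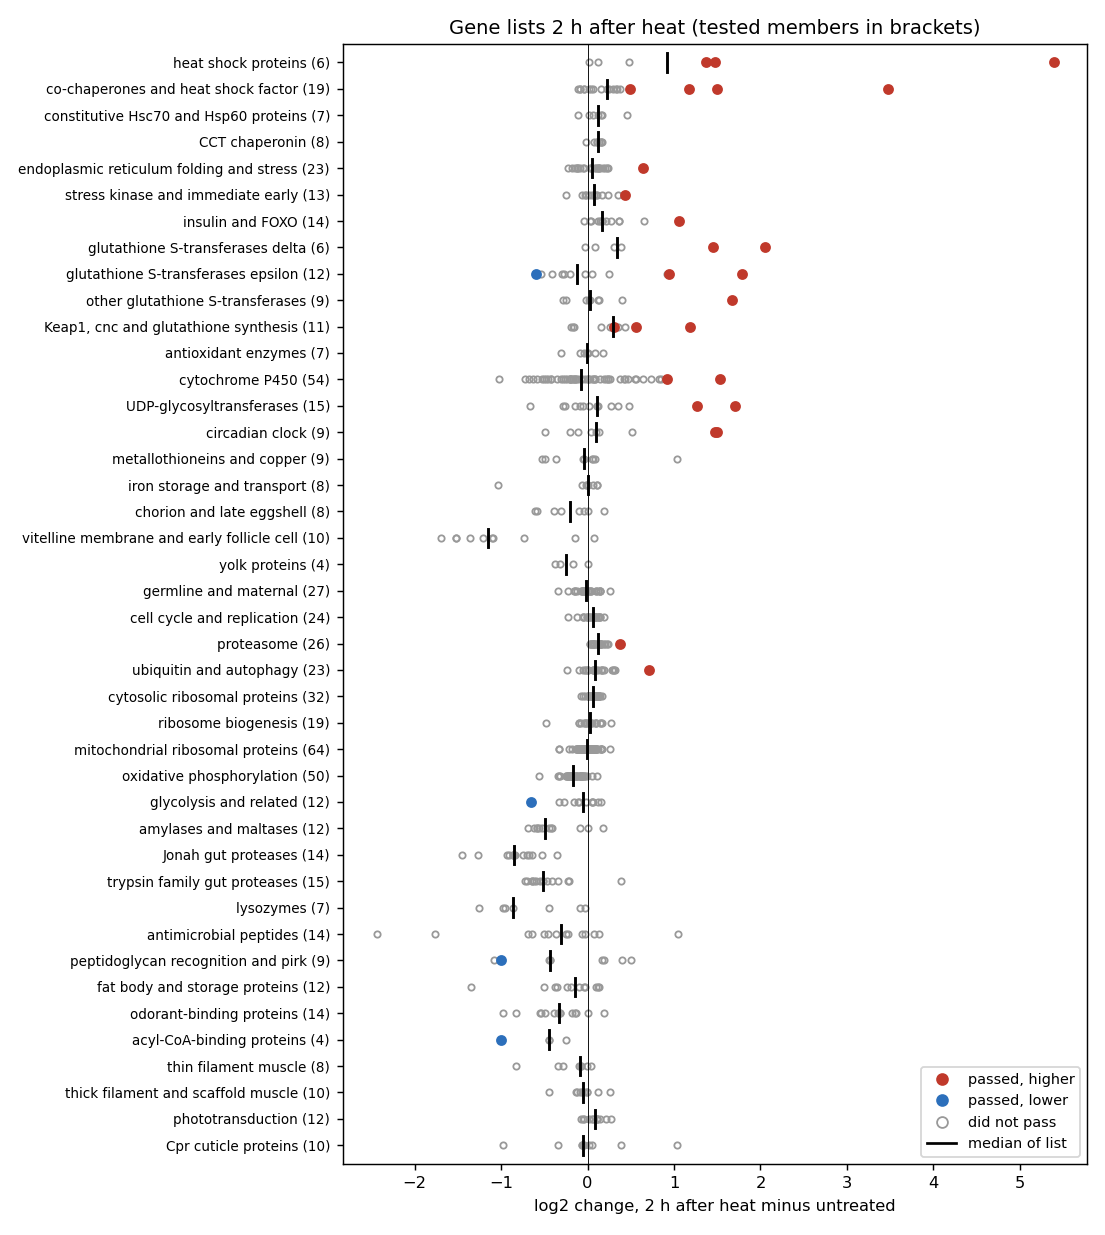
Log2 change (2 h after heat minus untreated, x axis) of every tested member of the gene lists (rows, number of members in brackets), with members that passed as higher in red, members that passed as lower in blue, other members as open circles and the list median as a black bar. Red points are spread over the chaperone and detoxification lists, while the Jonah protease and lysozyme lists lie left of 0 with no coloured point, as does the trypsin-family list but for Ser12.

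Setting 2 h against 1 h asked which transcripts were still moving. Of 8199 probe sets 5 passed (0.061%), with 4 higher (0.0488%) and 1 lower (0.0122%) at 2 h, and 280 had an unadjusted p under 0.05 (3.42%). The count was 2 without the replicate block and 1 to 5 with single arrays left out. The tim transcript was higher at 2 h, at 328, 437, 304 and 242, against 154, 95.6, 130 and 66.4 at 1 h (log2 difference 1.59, SE 0.18, adjusted p = 0.000177), and it was the only 1 of the 5 that passed in every fit that left out an array. That call was lost without the replicate block. CG15096, a predicted phosphate transporter, had 581, 595, 661 and 716 at 2 h, against 266, 271, 336 and 448 at 1 h (log2 difference 0.98, SE 0.14, adjusted p = 0.00464), a call lost without the nonselected array of replicate 1 at 1 h. It stood at -0.32 (adjusted p = 0.402) relative to untreated flies at 2 h, and at -1.30 at 1 h. The myoblast fusion gene blow differed by 0.69 (adjusted p = 0.0446) and lost its call in 7 of 8 fits that left out an array. The blow call was also lost without the replicate block and with values under 32 set to 32. Hsp68 was lower on every array at 2 h than on every array at 1 h, by 0.28 on the log2 scale, but did not pass (adjusted p = 1.00).

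Between 2 h and 4 h, several chaperone and detoxification transcripts differed. Of 8199 probe sets 60 passed (0.732%), 36 higher (0.439%) and 24 lower (0.293%) at 2 h, and 544 had an unadjusted p under 0.05 (6.63%). The count was 22 without the replicate block and 20 to 62 with single arrays left out. Hsp68 had 18100, 20000, 19400 and 20800 at 2 h, against 6620, 6870, 9520 and 5810 at 4 h (log2 difference 1.47, SE 0.26, adjusted p = 0.008), and the call was lost without the nonselected array of replicate 2 at 4 h. Hsp27, Hsp26, unc-45 and CG7130 were also higher at 2 h, by 0.72, 0.61, 0.81 and 1.03 on the log2 scale (adjusted p = 0.0313, 0.0219, 0.0363 and 0.00252). The co-chaperones stv and DnaJ-1 differed by 0.90 (adjusted p = 0.152) and 0.62 (adjusted p = 0.0522) and did not pass. CG12224 had 589, 316, 1050 and 308 at 2 h, against 114, 71.7, 235 and 177 at 4 h (log2 difference 1.87, SE 0.23, adjusted p = 0.000156). CG7879 and aay were higher at 2 h by 1.09 and 0.89 (adjusted p = 0.00012 for each), and relative to untreated flies they stood at 0.21 and -0.024 at 4 h. Pdk, Gclm, GstE7 and ref(2)P were higher by 0.60, 0.47, 0.77 and 0.42 (adjusted p = 0.000383, 0.0121, 0.0182 and 0.0182), while GstD2, GstE1 and GstO3 differed by 0.83, 0.62 and 0.42 and did not pass. CG16898 and CG34376 were higher at 2 h by 1.46 and 1.24 (adjusted p = 0.0075 and 0.0198), calls that were lost without the nonselected array of replicate 1 at 4 h, for CG16898 also without the replicate block, and for CG34376 in 7 of the 8 fits that left out an array.

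Of the transcripts lower at 2 h than at 4 h, CG15096 had 581, 595, 661 and 716 at 2 h, against 1510, 1240, 1590 and 1540 at 4 h (log2 difference -1.20, SE 0.14, adjusted p = 0.000141), so it was lowest at 1 h and highest at 4 h. Hex-C was lower at 2 h than at 4 h by 0.82 (adjusted p = 0.0182). The other genes were CG3739, the vanin-family gene vanin-like, CG10026 and CG10514, with log2 differences of -1.96, -1.52, -1.35 and -1.12 (adjusted p = 0.0225, 0.049, 0.00291 and 0.0292). All but CG10026 lost the call in 5 to 7 of the 8 fits that left out an array, and vanin-like, CG10026 and CG10514 also lost it without the replicate block. With values under 32 set to 32, CG10026 stood at -0.682 and did not pass (adjusted p = 0.197). The vanin-like call was also lost with that setting.

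**Figure D5:**
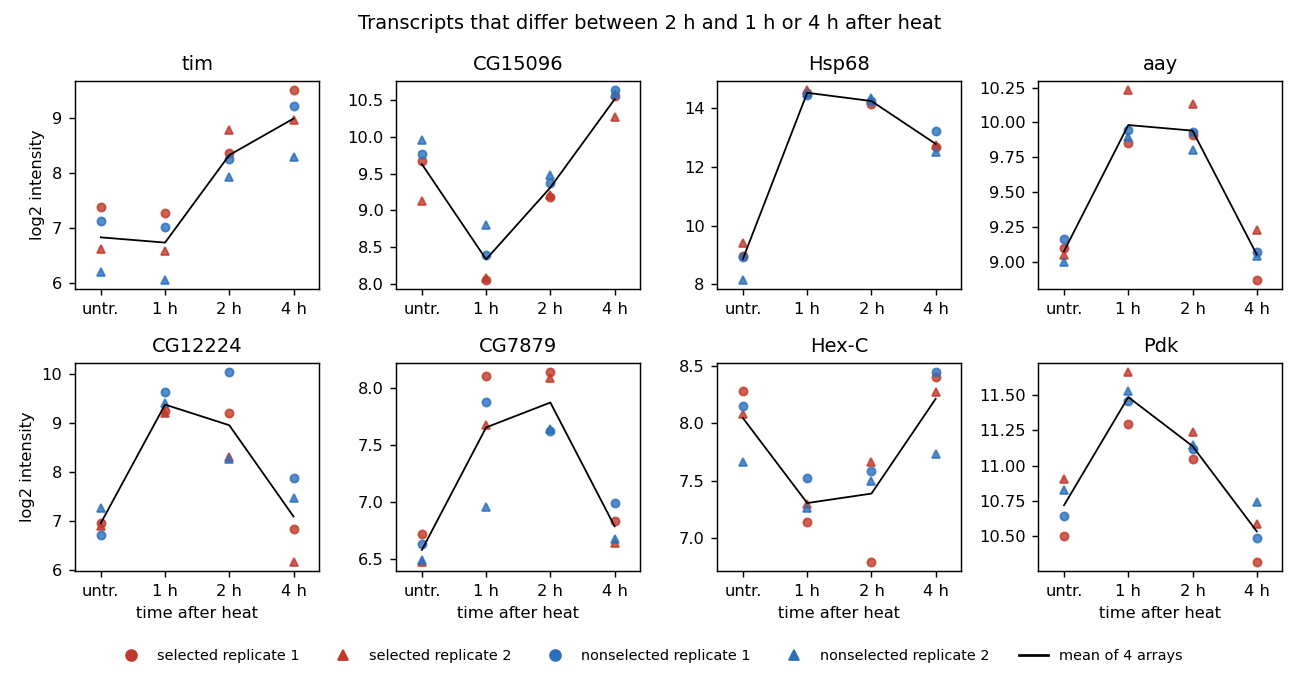
Log2 intensity (y axis, separate scale for each panel) of 8 transcripts in untreated flies and 1, 2 and 4 h after heat (x axis), with circles for replicate 1, triangles for replicate 2, red for the selected line, blue for the nonselected line and a black line through the means of 4 arrays. The tim transcript is near the untreated level at 1 h and above it at 2 h, CG15096 is lowest at 1 h, and aay, CG7879 and Pdk are near the untreated level at 4 h.

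The last comparison asked whether the selected line responded otherwise than the nonselected line at 2 h. In limma's fit 0 of 8199 interaction terms passed and 37 had an unadjusted p under 0.05 (0.451%). That count was 30 with the trend and robust options, 14 without the replicate block and 86 on the 8 arrays alone. All these counts are lower than evenly spread p-values would give at 0.05. They share the same arrays, and whether the test was conservative was not tested. The median within-group SD was 0.24 over the 18 groups of the fit and 0.195 over the 4 groups compared. Hsp68 differed between heated and untreated flies by 5.03 in the selected line and 5.76 in the other, an interaction of -0.72 (SE 0.52, unadjusted p = 0.183). For stv the changes were 3.43 and 3.51, for Hsp26 1.34 and 1.41, and for ref(2)P 1.14 and 1.25 in the selected and nonselected line. The 5 smallest p-values belonged to CG12814, CG18268, CG9667, Jhbp12 and Taf6, with interactions (selected minus nonselected) of 0.74, 1.04, 0.45, 0.73 and -0.44, each with an adjusted p of 1.00. With values under 32 set to 32 the CG18268 interaction vanished, so it lies wholly under that level, and that of Jhbp12 was 0.263. With 2 arrays per line and time the SE of an interaction was 0.52 for Hsp68 and 0.51 for stv, so the absence of calls does not show that the lines responded alike.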

How the data were processed

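Total RNA of whole adult female flies, labelled with biotin, was measured on 36 single-colour arrays, in 18 groups of 2. The authors made the deposited intensity values with GCRMA, per the submitters' processing notes, and its version and the genome build are not given in the sources used here. The values run from 1.15 to 46856 on a linear scale. They carry no detection calls, and the background correction makes differences near an intensity of 32 uncertain. Read depth does not apply, and precision is limited by how many arrays there are.

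Of 14010 probe sets, 44 controls were left out, and 12443 of the others have a single gene symbol in GEO's platform annotation. RefSeq's genes (assembly Release 6 plus ISO1 MT) supplied current symbols for 12394. No arrays held identical values. No promoter, protein or probe sequence was used here.

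Values were set to log2 without a pseudocount. Testing was limited to the 8199 probe sets whose 4 brightest arrays averaged 5 or more on this scale (7312 with a single symbol, for 6884 genes). A model with 18 group terms and the replicate number was fitted over all 36 arrays by lmFit and eBayes (limma 3.58.1, R 4.3.3) with 17 residual degrees of freedom, and the Benjamini-Hochberg adjustment was made within each contrast. All adjusted p-values printed come from limma. Where an array on the lower side was under 32, such arrays were set to 32 and the ratio is given as at least that large. Nothing in the labels says that replicates shared a culture, and the p-values measure the spread between these extracts.

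Named genes are at most 15 genes in each direction with the greatest changes past the threshold, a single symbol and no overlap between groups, up to 5 in each direction against 1 h and 4 h, the 5 smallest interaction p-values, and members of the lists. A gene is given by its probe set of highest mean. The comparison, the members and the lists were chosen with earlier results of these data known. Alternatives left out the block, used only the arrays compared, changed the filter, the floor, the normalization or the variance options, and left out each array in turn. Before use the fit was tested on simulated data with independent noise and a replicate effect common to all groups. Replicate effects that differ between groups were not covered by that test.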

Additional observations from a re-analysis of the deposited data

Results flagged for a closer look

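In 2 of the 154 gene groups of 4 arrays that were examined, the highest or lowest array lay far from the other 3. For unselected groups of like arrays, chance at 1 in 20 would give about 7.7. These genes were chosen for passing a test on the same arrays, and each group pools 2 lines. The count of 2 therefore cannot be judged against 7.7. For Cyp6a23 the selected array of replicate 2 at 2 h stood at 974, with the other heated arrays between 495 and 546. For Lpin the nonselected untreated array of replicate 2 stood at 117, with the other untreated arrays between 148 and 153.

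The response at 2 h differed from that at 4 h or 1 h, by limma's test of the difference itself, in the following of the 77 genes or probe sets examined. CG15096, blow, CG7879, CG3739, vanin-like and CG10026 were among the 77 only because they had passed these same tests. Their place here was thus fixed beforehand. Higher at 2 h than at 4 h were CG12224 (log2 difference 1.87, adjusted p = 0.000156), Hsp68 (1.47, adjusted p = 0.008), CG16898 (1.46), CG34376 (1.24), CG2065 (1.22, adjusted p = 0.0412), CG7879 (1.09) and CG7130 (1.03). Smaller positive differences from 4 h were those of aay (0.889), CG6785 (0.884, adjusted p = 0.0182), unc-45 (0.806), GstE7 (0.773), Hsp27 (0.722), bchs (0.705, adjusted p = 0.00291), Hsp26 (0.609), Pdk (0.601), Gclm (0.467) and ref(2)P (0.419). Lower at 2 h than at 4 h were CG3739 (-1.96), vanin-like (-1.52), CG10026 (-1.35), CG15096 (-1.20), CG10514 (-1.12), Hex-C (-0.823) and Nplp2 (-0.431, adjusted p = 0.0294). Higher at 2 h than at 1 h were tim (1.59), CG15096 (0.979) and blow (0.687).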

How the results depend on the processing

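The number of calls depends on the replicate block. Without it, 96 probe sets passed at 2 h against untreated flies, 2 against 1 h and 22 against 4 h, where the fit with the block gave 180, 5 and 60. The deviations of same-numbered arrays from their group means correlated across probe sets, with r between -0.142 (selected at 2 h and nonselected untreated) and 0.461, so the data do not show pairing for each pair of groups, and the labels do not say what a number shares. Among the 30 genes with the greatest changes at 2 h, 25 passed without the block. With only the arrays compared, 3 residual degrees of freedom remained for the main comparison, and 42 probe sets passed there (39 of them among the 180), with 0 against 1 h and 0 against 4 h. Other settings left 164 to 187 calls at 2 h and 40 to 59 against 4 h. Against 1 h, 3 probe sets passed with no filter, 2 with a stricter filter, 3 with values under 32 set to 32 and 2 with arrays centred on their medians. No interaction passed in any setting. Leaving out an array gave 116 to 172 calls at 2 h, with the lowest count without the nonselected array of replicate 1 at 2 h and without the selected untreated array of replicate 2. It gave 1 to 5 against 1 h and 20 to 62 against 4 h. The remaining array of a group is then assumed to vary like the other groups. In all such fits 83 of the 180 passed, and 15 of those 30 genes. The 86 gene results were refitted under these settings, 1359 refits in all. No result that passed in the main fit changed direction, and in 271 refits such a result no longer passed. The 5 interaction results did not pass in the main fit, so a change in their direction was not counted.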
